A study of Arabidopsis thaliana with 4 samples.

Results

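The change in transcript levels between 10 and 24 h of thrips feeding was followed in Arabidopsis thaliana for 652 of the 1182 cDNA clones on a stress-gene array. A clone entered when it had at least 1 spot with the scanner's good-spot flag (flag value 3) on the 10 h array and on the 24 h array. Of the other 530 clones, 87 had good spots at 10 h but not at 24 h, 66 at 24 h but not at 10 h, and 377 on neither array. Wild-type plants of the ecotype Columbia-0, 21 days old and grown in soil, received 25 adult female western flower thrips (Frankliniella occidentalis) per plant, which had gone without food for 3 h. The control on each array was untreated wild-type plants of the same age grown in parallel. RNA came from the above-ground parts (leaves, or the plant without its root, in the labels' own terms). The study has 4 arrays, for 2, 5, 10 and 24 h of feeding, with fed plants in the red dye Cy5 and untreated plants in the green dye Cy3 on each. Per the labels, 30 to 70 plants made up a sample, 3 to 4 experiments were combined into 1 RNA extract, and that RNA was hybridised to 2 to 3 arrays. One array per time was used here, so no comparison below has a test, and every error is technical. In pooled whole-shoot RNA, fewer cells of a type and less RNA per cell cannot be told apart.

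Thrips pierce leaf cells and empty them, and Arabidopsis answers such feeding with jasmonate, a lipid hormone made in plastids and peroxisomes. Bound as its isoleucine conjugate, jasmonate leads to the breakdown of JAZ repressors and frees transcription factors that switch on defence genes such as thionins, defensins and lectins. Jasmonate that has done its work is hydroxylated and cleared, and cold, drought and abscisic acid act through partly separate genes of which COR47, KIN2 and RD29A are common readouts.

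The value described is the difference of 2 log2 ratios of fed over untreated plants, 24 h minus 10 h, each normalized within its array by one loess curve. Both arrays lay on the same slide, 10 h on its upper and 24 h on its lower part, and were scanned at the same gains of 69 for Cy3 and 60 for Cy5. The dyes ran the same way on both, so a fixed dye effect of a clone cancels in the difference. Over the good clone spots, 1428 at 10 h and 1393 at 24 h, the median red intensity was 1536 and 1325 above median local backgrounds of 336 and 211. The median green intensity was 895 and 956 above backgrounds of 128 and 126. None of the 26 negative control spots was good on either array. The ratios spread more widely over clones at 10 h (SD 1.60) than at 24 h (SD 1.28). No leaf marker of the lists used here is among the named clones, so the tissue label could not be checked against one. Of 4 root markers on the array, 3 were measured and are given with the ER-body genes below.

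Within 0.5 log2 of no change lay 313 of the 652 clones (48.0%), and the median difference was 0.08. The differences had an SD of 1.03 and ran from -6.33 to 5.49. All clones but 1, which had 4 spots, were printed as 2 spots, and the difference was taken for each spot position, giving 603 clones at least 2 spot pairs. The SD between the spot pairs of a clone had a median of 0.16 and a pooled value of 0.28 log2. A clone was called when the difference was at least 1 in size (2-fold), all its spot pairs (at least 2) had the same direction and a channel stood above background on both arrays. By this rule 80 clones (13.3% of 603) were higher and 49 (8.13%) lower at 24 h than at 10 h. The size was over 3 times the SD of the clone's own spot pairs in 114 of these 129 clones. Another 17 clones had a difference of 2-fold or more but fewer than 2 spot pairs.

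Of the 80 clones called higher, 49 had been at least 2-fold lower in fed than in untreated plants at 10 h, 25 had been within 2-fold and 6 at least 2-fold higher. At 24 h, 31 of the 49 were back within 2-fold of untreated plants and 18 were still low, while 16 of the 25 had become at least 2-fold high. Of the 49 clones called lower, 31 had been at least 2-fold high at 10 h, and 21 of these were within 2-fold of untreated plants at 24 h. Since a low or high 10 h value is part of the difference, these counts describe the calls and support nothing. Over all 652 clones, the number at least 2-fold low went from 156 at 10 h to 107 at 24 h and the number at least 2-fold high from 147 to 133. Only 1 clone went from high to low and 0 from low to high.

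**Figure D1:**
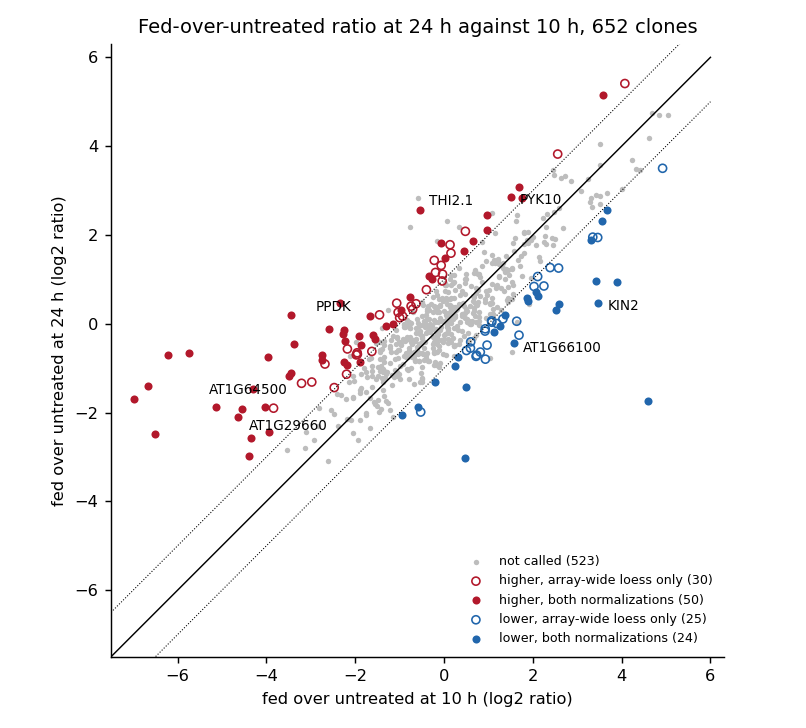
Log2 ratio of fed over untreated plants at 24 h (vertical) against 10 h (horizontal), with 1 point per clone for 652 clones; the solid line marks no change and the dotted lines a 2-fold difference. Filled points were called with both normalizations (50 higher, 24 lower) and open points with the array-wide loess alone, and most clones called higher lie left of 0 at 10 h.

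The zero point of the comparison carried weight. Loess sets the middle of each array near 0, and the split of calls was 80 higher to 49 lower, 62.0% higher. With ratios set to the alpha tubulin spots, the median difference was 0.91 and the split 259 to 8 (97.0% higher). In the deposited value table the median was 0.52 and the split 180 to 26 (87.4% higher), over 644 clones. That table holds no spot pairs, so their agreement could not be required, and 8 of its values lay at a floor at 10 h. Without required agreement the loess split was 91 to 54. All differences below are relative to a curve through the clones of like brightness on each array.

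Position on the array moved with the difference as well. The clones were printed in 12 blocks, and the median difference of a block ran from -0.45 in block 5 to 0.81 in block 4. In block 4, 21 clones were called higher and 0 lower, while in block 5, 2 were higher and 13 lower. The 80 spots of lambda DNA, which had no weight in the normalization, are spread over the same blocks, and their median was 0.73 in block 4, -0.38 in block 5 and -0.67 in block 7. Lambda DNA and clone medians shared their sign in 9 of the 12 blocks and had opposite signs in blocks 1, 10 and 12. A loess curve fitted within each block (print-tip loess) brought the block medians to between -0.24 and 0.29. It called 65 clones (10.8% of 603) higher and 43 (7.13%) lower, and 50 and 24 of these were also called with the array-wide curve. Of the named genes, 13 of 25 called higher and 6 of 12 called lower were called with both. The spots of a clone share this position: in 1105 of 1182 clones they are neighbours in a row, so the SD between them does not hold it. The print-tip value therefore stands beside each called gene below.

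**Figure D2:**
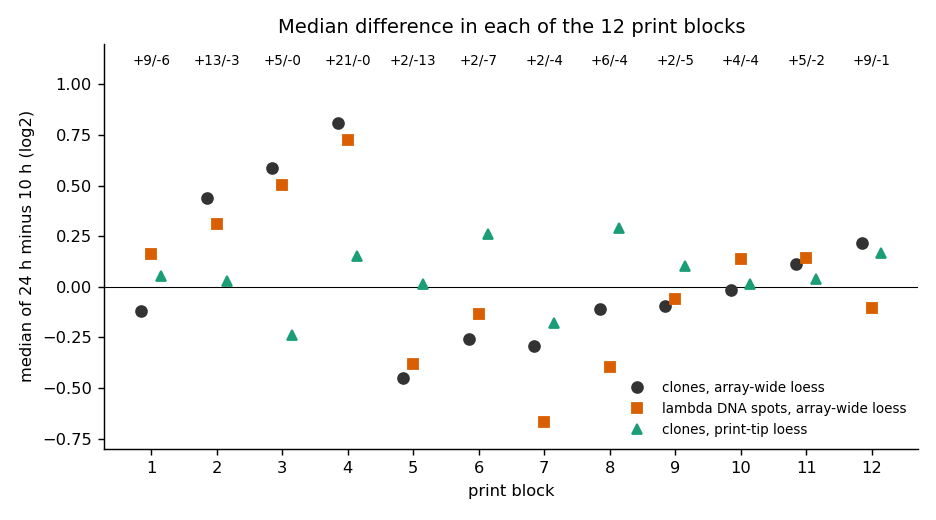
Median 24 h minus 10 h difference (log2) in each of the 12 print blocks, for clones and for lambda DNA spots with the array-wide loess and for clones with print-tip loess. The numbers at the top count clones called higher and lower, and block 4 (+21/-0) and block 5 (+2/-13) have the highest and lowest clone medians.

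Among the jasmonate- and wound-responsive defence genes, the antimicrobial peptides THI2.1 and PDF1.2 were low or near untreated levels up to 10 h and high at 24 h. THI2.1, a thionin induced by methyl jasmonate, had log2 ratios of -0.90, -0.02, -0.54 and 2.55 at 2, 5, 10 and 24 h. Only its 24 h value lay above that of untreated plants. The difference was 3.09 ± 0.02 (SD over 2 spot pairs), 8.52-fold, and the print-tip value was 1.97. PDF1.2, a plant defensin that responds to jasmonate with ethylene, stood at -0.31, -0.58 and 2.82 at 5, 10 and 24 h, with no good spot at 2 h. It had 1 spot pair, at a difference of 3.42 (2.24 with print-tip loess), and could not be called. THI2.1 and PDF1.2 both lie in block 4.

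AT3G28220, the gene of a TRAF-like protein, had log2 ratios of 3.68, 4.46, 4.07 and 5.41 and was thus high at every time. Its difference of 1.34 ± 0.01 was called. It fell under the threshold with print-tip loess (0.69), plain background subtraction (0.67) and mean pixel values (0.47). The untreated channel was not above background at 10 h. With that channel raised to the lowest signal above background on its array, the difference was 3.11-fold, which is not a firm upper limit. FAMT, a farnesoic acid methyltransferase, went from 2.87 to 3.22 (0.35 ± 0.16, print-tip 0.70). Its difference was -0.14 with plain background subtraction and -1.84 with mean pixel values, so that its direction turned. The defensin-like protease inhibitor gene AT2G43530 went from 1.89 to 2.06 (0.17 ± 0.92, print-tip -0.30). Of the 4 measured members of the list with 2 spot pairs, 2 were called higher and 0 lower, with a median of 1.34 over all 5 against 0.08 over all clones. With print-tip loess 1 of the 4, THI2.1, was called. Over all clones, 13.3% were called higher with the array-wide curve and 10.8% with print-tip loess.

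Jasmonate synthesis and breakdown were measured in 3 clones. OPCL1, a CoA ligase of jasmonate synthesis, had log2 ratios of 1.86, 1.75, 2.15 and 1.49 and so was high throughout. Its difference of -0.65 ± 0.01 was under the threshold, and the print-tip value of -1.40 was past it. AT5G05600, a jasmonate-hydroxylating oxygenase, had ratios of 3.72, 4.58, 4.83 and 4.71, with a difference of -0.12 ± 0.08. Its relative AT2G38240 stood at 3.06 at 5 h and at 0.19 and 0.37 at 10 and 24 h, and its single spot pair differed by -0.03 (-1.23 with print-tip loess). No jasmonate signalling gene of the list was measured on both arrays. EIN3, the central transcription factor of ethylene signalling, differed by 0.20 ± 0.46 (print-tip 0.68), and the chitinase gene CHI, at 1.22 and 1.45, by 0.23 ± 0.19 (print-tip 0.48).

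The deepest 10 h values among named genes belonged to 3 clones that were still low at 24 h. AT1G64500, a glutaredoxin-family gene, went through -1.28, -2.81, -5.14 and -1.87 at 2, 5, 10 and 24 h. AT1G29660, a GDSL-type lipase gene, had -1.44, -2.26, -4.65 and -2.11, and DRT100, with leucine-rich repeats and a name from DNA-damage tolerance, had -2.49, -2.34, -4.35 and -2.57. In the fitted values all 3 were lowest at 10 h, and the 24 h values lay nearer to those at 2 and 5 h than the 10 h values did. At 10 h the fed channel of each was not above background, at red intensities of 287, 353 and 287. The depth of the 10 h values, and with it that nearness, was thus not measured. With the fed channel raised to the lowest signal above background on its array, AT1G64500 was 3.09-fold and AT1G29660 2.15-fold higher at 24 h than at 10 h. A spot's own detection limit can lie above that signal, so these folds are not firm lower limits. For DRT100 the fed channel was dim on both arrays, so its minimum could not be placed at 10 h and no fold is given. The fitted differences were 3.28 ± 0.45, 2.54 ± 0.08 and 1.78 ± 0.41, and 3.74, 2.39 and 1.24 with print-tip loess. With plain background subtraction none of the 3 was called, and DRT100 was also not called without background correction, with median centring, on the lambda DNA scale or with other flags kept.

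In the fitted values a dip at 10 h was also seen in AT1G66180, an aspartyl protease gene, at -0.51, -1.20, -2.98 and -1.31. AT1G68440 had -0.56, -2.08, -2.68 and -0.91. The fed channel of each was again not above background at 10 h. Both genes were still under the untreated level at 24 h. With that channel raised in the same way, they were 2.68-fold and 2.29-fold higher at 24 h with the array-wide curve, again not firm lower limits. The print-tip differences of 0.53 and 0.98 were not called. Without background correction AT1G66180 was at 0.93, and on the lambda DNA scale AT1G68440 was at 0.98, so that each lost its call there too. PLIM2b, a LIM-domain protein that binds actin, went from -1.96 to -0.65, and FUG1, the initiation factor of chloroplast translation, from -2.47 to -1.44. Their differences of 1.30 ± 0.06 and 1.04 ± 0.12 were 0.74 and 0.28 with print-tip loess. Neither was called without background correction (0.65 and 0.96) or with mean pixel values (0.88 and 0.99). PLIM2b was also not called on the lambda DNA scale or with other flags kept, and was at 2.35 with plain background subtraction.

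Several genes of primary metabolism and transport were higher at 24 h. PPDK, which turns pyruvate into phosphoenolpyruvate, had log2 ratios of -0.81, -1.52, -1.68 and 0.16. It was thus low up to 10 h and at the level of untreated plants at 24 h, a difference of 1.84 ± 0.17, 3.58-fold (1.47 with print-tip loess). FDH, the mitochondrial formate dehydrogenase, stayed between -0.55 and -0.28 up to 10 h and reached 1.00 at 24 h, a difference of 1.28 ± 0.16 (1.35 with print-tip loess). AT3G21670, a nitrate transporter gene of the NRT1 family, went from -1.91 to -0.27 (1.63 ± 0.06, 1.47 with print-tip loess). SFP1, a sugar transporter, reached 1.16 at 24 h from -0.19 at 10 h, and its difference of 1.35 ± 0.57 was 0.68 with print-tip loess.

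In the list of starch, sugar and carbon metabolism, which was drawn up after the data were seen, 3 of 6 genes with 2 spot pairs were called higher and 0 lower, with a median of 0.83 over its 7 members, against 13.3% and 8.13% of all clones. With print-tip loess 2 of the 6, PPDK and FDH, were called higher, against 10.8% of all clones. APL3, a large subunit of the enzyme that makes ADP-glucose for starch, differed by 0.83 ± 0.17 (print-tip 0.61). The starch-degrading enzyme DPE1 went the other way, from 1.04 to -0.77, on 1 spot pair (-1.90, print-tip -2.02).

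The ER bodies of Arabidopsis store beta-glucosidases that meet their substrates when a cell is broken, and jacalin-type lectins join them in complexes. PYK10, the main ER-body beta-glucosidase of roots, had log2 ratios of -0.27, 0.42, 1.50 and 2.86. Its value was higher at each later time, and the 24 h minus 10 h difference was 1.36 ± 0.01, 2.56-fold (1.38 with print-tip loess). BGLU22 followed with -0.58, 0.41, 1.55 and 1.82 but a difference of 0.28 ± 0.19 (print-tip 0.66), and BGLU21 went from 1.08 to 0.57 (-0.51 ± 0.05, print-tip -0.24). These 3 genes are the measured root markers, and their cDNAs may share signal; their part in the above-ground label was not tested. JAL34, a jacalin-type lectin, was high at every time, at 1.96, 2.91, 3.46 and 1.94. Its difference of -1.52 ± 0.70 was called, but was -0.72 with print-tip loess. AT1G54010, a GDSL lipase-like gene, went from 4.31 to 3.48, NAI2, needed to form ER bodies, from 2.26 to 1.97, and the lectin gene AT1G52000 from 3.52 to 4.04. Of the 8 members of the list, all with 2 spot pairs, 1 was called higher and 1 lower, against 13.3% and 8.13% of all clones. The median was -0.32, against 0.08 over all clones. With print-tip loess PYK10 alone was called, against 10.8% of all clones higher and 7.13% lower.

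Other genes called higher with both normalizations had modest values. The class III peroxidase gene AT4G37520 had log2 ratios of 0.62, 1.00, 0.46 and 1.64 (difference 1.19 ± 0.05, print-tip 1.32). AT1G73480, an alpha/beta-hydrolase gene, and AT3G28270 were high at 24 h, at 2.12 and 2.84, after 0.97 and 1.74 at 10 h. At 2 and 5 h they had stood at 2.03 and 1.97 and at 1.73 and 2.04, so that both were high early as well. Their differences were 1.15 ± 0.27 and 1.09 ± 0.00, and 1.47 and 1.66 with print-tip loess. AT3G57020, of the strictosidine synthase-like family, and AT1G17990, related to 12-oxophytodienoate reductases, were low at 10 h, at -1.59 and -1.15, and at -0.25 and 0.00 at 24 h. Their differences were 1.35 ± 0.62 and 1.15 ± 0.21, and 1.43 and 1.36 with print-tip loess. AT4G37520 and AT3G28270 were not called with mean pixel values.

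The remaining genes named as called higher kept no call with print-tip loess. AT3G28940, an AIG2-like gene, went from -0.22 to 1.43, with up to 50.8% of the pixels of a spot saturated at 24 h (1.65 ± 0.38, print-tip 0.96). AT5G61590, an AP2/ERF-type transcription factor gene, went from -1.07 to 0.46 (1.53 ± 0.54, print-tip 0.43). AT1G68620, a carboxylesterase-like gene, went from 0.48 to 2.08 (1.60 ± 0.42, print-tip 0.96), with an untreated channel not above background at 10 h. With that channel raised to the lowest signal above background, the difference was 3.24-fold, which is not a firm upper limit. AT1G23130, AT5G54940 and the aldo-keto reductase gene AT1G60730 had differences of 1.14, 1.08 and 1.00 and print-tip values of 0.38, 0.16 and 0.86.

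Of the 6 genes of the cold, drought and abscisic acid list named among the clones, 2 were measured on both arrays. Both were called lower at 24 h than at 10 h with either normalization. The share of all clones called lower was 8.13% with the array-wide curve and 7.13% with print-tip loess. KIN2 had log2 ratios of 1.74, 1.77, 3.47 and 0.48 and was therefore highest at 10 h and lowest at 24 h. The fitted difference was -2.99 ± 0.51 (print-tip -3.02), but its untreated channel was not above background at 10 h. With that channel raised to the lowest signal above background, the level was 6.47-fold lower at 24 h, which is not a firm lower limit. COR47, a dehydrin gene, moved in a lower range, at -0.12, 0.26, 0.31 and -0.74. Its difference of -1.05 ± 0.09 (print-tip -1.02) was just past the threshold, and was not called without background correction or with mean pixel values. KIN2 and its neighbour KIN1 are close in sequence and may share signal on a cDNA array.

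AT1G66100, a thionin-family gene, went the opposite way to THI2.1. Its log2 ratios were 0.62, 0.92, 1.58 and -0.44, so that it was highest at 10 h and under the untreated level at 24 h. The difference was -2.02 ± 0.06, 4.06-fold lower, and -1.33 with print-tip loess, and it was not called with mean pixel values. AT5G62350, an inhibitor of pectin methylesterase or invertase, was steady at 1.34, 1.12 and 1.27 up to 10 h and at -0.05 at 24 h (-1.32 ± 0.04, print-tip -1.22). AT5G35735, an auxin-responsive family gene, was likewise steady at 1.57, 1.74 and 1.90 and at 0.52 at 24 h (-1.38 ± 0.13, print-tip -1.25). AT4G38550, a phospholipase-like gene, went from 0.25 to -0.96 (-1.21 ± 0.30, print-tip -1.52), and was not called with mean pixel values. Under the alpha tubulin zero point, KIN2 was the only one of the 12 named genes called lower that was still called. In the deposited table, 4 of the 12 were past 2-fold: KIN2, AT5G35735, JAL34 and BGLU44.

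The other 6 named genes called lower were not called within their blocks. BGLU16, a beta-glucosidase gene, went from 1.69 at 10 h to -0.26 at 24 h, a difference of -1.95 ± 0.39, and the print-tip value was -0.19. BGLU44, a beta-glucosidase of the same family, had log2 ratios of -0.86, 1.57, 1.33 and 0.11, low at 2 h and high at 5 and 10 h (-1.22 ± 0.08, print-tip -0.63). BZIP53, a transcription factor of seed and starvation programmes, went from 1.07 to 0.03 (-1.04 ± 0.10, print-tip -0.68). It was also not called with median centring (-0.99) or mean pixel values (-0.76). RD2 and AT2G18690 had differences of -1.44 ± 0.12 and -1.19 ± 0.07 and print-tip values of 0.16 and 0.00, so that their direction was lost. Both lie in blocks of negative median, 6 and 5. RD2 was also not called with median centring (-0.75), on the lambda DNA scale (-0.78), with mean pixel values (-0.97) or with other flags kept (-0.79).

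**Figure D3:**
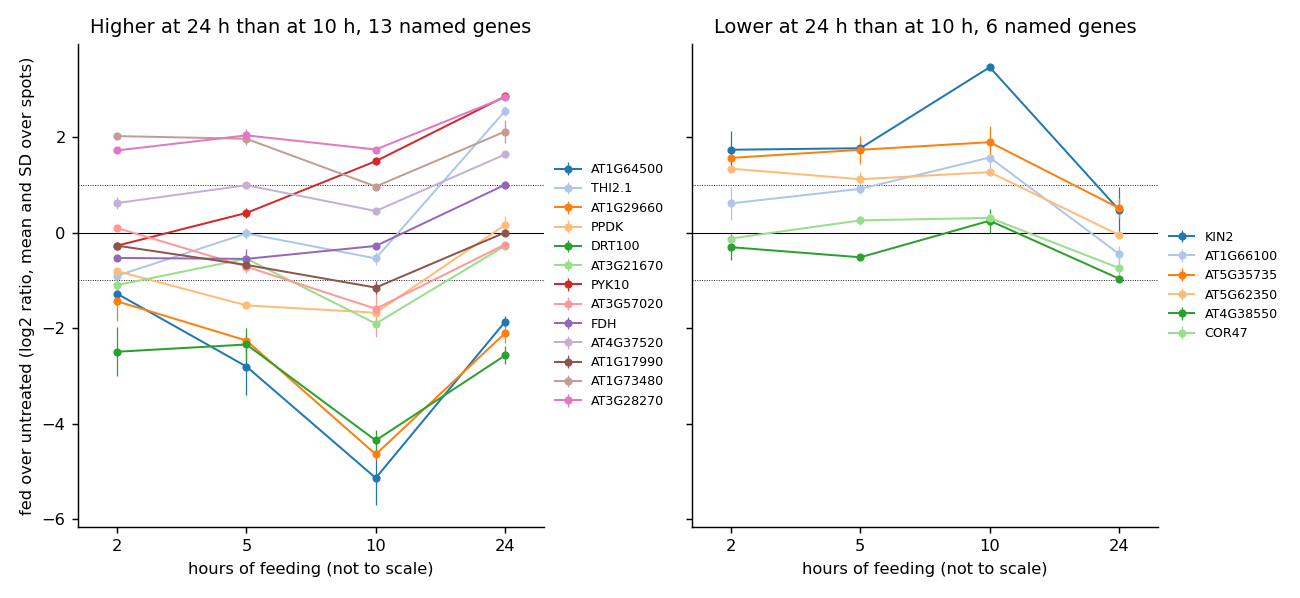
Log2 ratio of fed over untreated plants at 2, 5, 10 and 24 h for the 13 named genes called higher (left) and the 6 called lower (right) at 24 h than at 10 h with both normalizations. Points are means and bars the SD over a clone's spots on 1 array, and dotted lines mark 2-fold from untreated. AT1G64500, AT1G29660 and DRT100 form a low group with their fitted minimum at 10 h, where their fed channel was not above background.

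The ratio can move through the fed or the untreated channel, and both were read from the background-corrected intensities, each centred on its median change over clones. In the 80 clones called higher, the fed channel was a median of 1.88 log2 up and the untreated channel 0.36 up, and the fed change was the larger in 73. In the 49 called lower, the medians were -1.66 and -0.06, and the fed change was the larger in 41. Of the 50 and 24 clones called with both normalizations, the fed change was the larger in 44 and 19. THI2.1 changed by 3.36 in the fed and 0.47 in the untreated channel, and KIN2 by -2.10 and 0.65. In PPDK the untreated channel moved more, by -0.99, than the fed channel, at 0.75. The same held for PYK10, at -0.61 and 0.42, for FDH, at -0.58 and 0.38, and for COR47, at 0.63 and -0.48. The sources used here do not say whether both arrays carried the same untreated extract.

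**Figure D4:**
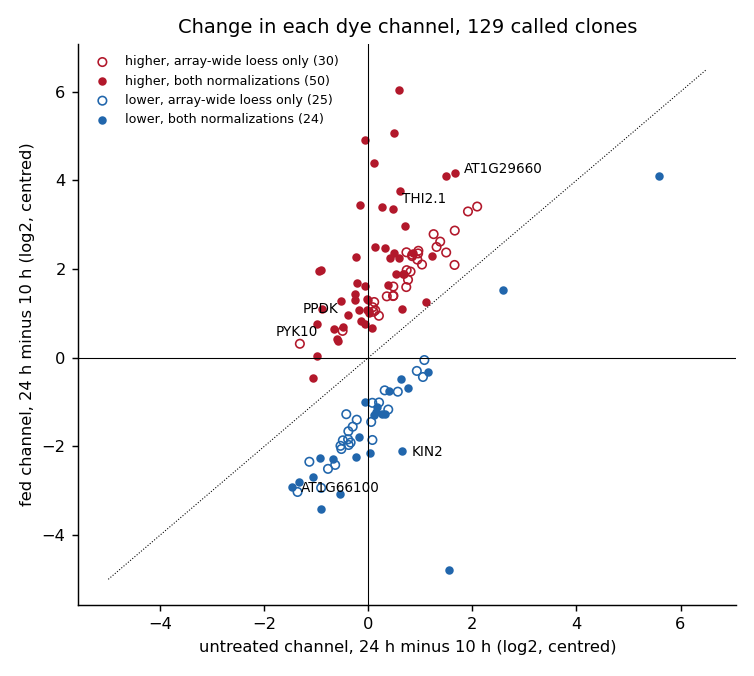
Change of the fed channel (vertical) against the untreated channel (horizontal), 24 h minus 10 h, in log2 and centred on the median over clones, for the 129 called clones. Points above the dotted line have a higher ratio at 24 h; most points lie nearer to the vertical than to the horizontal axis, and PPDK and PYK10 are among those with a fall in the untreated channel.

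Genes far from untreated levels at both times and with little difference between them were taken next. Among named genes with 2 spot pairs, 48 were at least 2-fold from untreated plants at 10 h and at 24 h, 26 of them high and 22 low at both. The 8 with the smallest differences lay between -0.12 and 0.12. ALDH7B4, an aldehyde dehydrogenase that removes reactive aldehydes, stood at 0.63, 1.46, 2.01 and 1.96, reaching its later level by 10 h. AT5G54170 was at 1.96, 1.75, 1.89 and 1.83, a narrow range over the 4 arrays with the array-wide curve. AT3G15450 came down from 2.65 at 2 h to 1.32 and 1.37. CCL had 1.57 and 1.63 although both channels brightened, by 2.04 in the fed and 2.12 in the untreated plants. AT5G61820 was at 1.23 and 1.35. On the low side, AT2G41090, a calmodulin-like calcium-binding protein gene, was at -1.14 and -1.21 and AT4G38710 at -1.37 and -1.31. With print-tip loess the differences of the 8 genes ran from -0.35 for AT4G38710 to 0.73 for AT5G54170, with ALDH7B4 at 0.55, AT2G41090 at 0.60 and AT5G05600 at 0.52.

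The other gene groups are read against 13.3% of all clones called higher and 8.13% lower, and only genes measured on both arrays are counted. Of 33 class III peroxidases named on the array, enzymes of cell wall cross-linking, 4 were measured and 1 was called higher (median 0.48). Among them AT5G64120, at 2.31 and 2.47, differed by 0.15 ± 0.01. Among the resistance-type genes with leucine-rich repeat or TIR domains, 1 of 9 with 2 spot pairs was called higher and 0 lower, the called one being DRT100. The median over 10 was 0.38, and 0.06 with print-tip loess. AT2G34930 in that group went from 2.16 to 1.42 with an SD between spot pairs of 0.77. Of 7 proteases and inhibitors with 2 spot pairs, 1 was called higher (median 0.45), and with print-tip loess 0. Of 7 cell wall and surface genes, 1 was called higher and 1 lower (median -0.36). With print-tip loess 2 were called higher and 1 lower (median -0.51), with AT3G49220 gained at 2.02 after 0.92 with the array-wide curve. Of 7 genes listed as beta-glucosidases, 1 was called higher and 2 lower (median 0.08), and with print-tip loess PYK10 alone was called. That list holds AT5G61820 (0.12), whose place in the family was not checked and without which the median would be lower. None of the 3 calmodulin-like genes, 3 sugar-conjugating glycosyltransferases, 2 genes of leucine and methionine breakdown and 2 carbonyl-detoxifying genes was called with either normalization. The array names 10 calmodulin-like genes and 11 such glycosyltransferases, so most of these 2 groups were not measured. AER, the alkenal reductase, went from 0.95 to 1.41 (0.46 ± 0.02). The lignin gene CCR2 and the berberine bridge enzyme-like gene AT1G26380 had 1 spot pair each, at 2.11 and 1.85. With print-tip loess AT1G26380 was at 0.97 and CCR2 at -1.53, so that the sign of CCR2 turned.

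The largest differences of all belonged to clones without a gene name here, as did 55 of the higher and 37 of the lower calls. RAFL04-16-B18 had log2 ratios of -0.98, 2.72, 4.59 and -1.74, and was thus low at 2 h, high at 5 and 10 h and low again at 24 h. With all channels above background, it was 80.2-fold lower at 24 h than at 10 h (-6.33 ± 0.40, print-tip -5.13). RAFL04-09-K06 went from 0.48 to -3.03. It was 7.67-fold lower with its dim fed channel at 24 h raised to the lowest signal above background. RAFL05-19-G24 and RAFL04-17-F21 went from -6.21 and -6.99 at 10 h to -0.71 and -1.70 at 24 h, with a fed channel not above background at 10 h. With that channel raised in the same way, they were 8.73-fold and 6.94-fold higher at 24 h, and the print-tip differences were 6.02 and 5.25. Folds from a raised channel are not firm lower limits. Across all calls, 21 differences upward and 8 downward were 4-fold or more, and 9 and 2 were 8-fold or more. The 3 called clones nearest the threshold were RAFL08-12-P11 at 1.00, AT1G60730 at 1.00 and RAFL05-13-F01 at -1.01. The nearest not called were RAFL09-07-G15 just under 1.00, AT5G16010 just above -1 and RAFL05-02-F07 at 0.99.

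The step from 2 to 5 h was measured on the other slide, where the Cy5 gain was 58 at 2 h and 65 at 5 h and so not equal as it was at 10 and 24 h. For it, 39 of 636 clones with 2 spot pairs (6.13%) were at least 2-fold higher and 52 (8.18%) lower, 14.3% in either direction against 21.4% from 10 to 24 h. On the 607 clones measured in both steps, the differences had an SD of 0.72 from 2 to 5 h and of 1.03 from 10 to 24 h. The pooled SD between spot pairs was 0.24 and 0.28.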

How the data were processed

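Transcript levels were read on 4 spotted cDNA arrays, 1 per feeding time. Per the labels, a ScanArray Lite scanner and ScanArray Express software were used. Per the file headers, the deposited scanner files give foreground and background intensity per spot and dye, and the percent of saturated pixels. Further software scaling named in the headers was not used. A deposited table of natural log values, with no stated scale, centring or direction, had medians of 0.606 at 10 h and 0.861 at 24 h and slopes of 0.968 and 0.962 on the natural log of the scanner ratio. It was read as Cy5 over Cy3 and served as an alternative.

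Median pixel intensities were background-corrected (normexp, offset 50) and normalized by loess within each array in limma 3.58.1 (R 4.3.3), with control spots and spots of other flags at weight 0. Summaries used Python 3.11.15 and pandas. A channel was above background when it exceeded its local background by 2 background SD in at least 50% of a clone's spots. Where a fold is given for a dim channel, that channel was raised to the lowest signal of any clone spot above background on its array. A spot's own detection limit can lie higher, so such folds depend on this setting and are not firm limits. The steps were tested on simulated data, made from the 10 h array with known changes in its red channel. Simulated log2 changes of -2 and 2 gave median differences of -1.37 and 1.58, smaller in size than put in. Of these clones, 77.1% and 96.4% were called. For changes of -1.5 and 1.5 the medians were -1.40 and 1.18, with 78.6% and 73.8% called. Of 499 clones without a change, 1.40% were called. Both simulated sides came from the 10 h array, so differences in print position, local background or flags between arrays were not in them. The 1.40% is thus not an error rate of the calls on the real arrays.

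The text names the 12 largest called differences each way among named genes, the 8 smallest among those 2-fold from untreated at both times, the members of the gene lists, at most 2 unnamed clones each way and the 3 nearest each side of the threshold. Genes called with both normalizations but outside that rule, and those with 1 spot pair, were chosen after their values were seen. The members and lists were chosen with earlier results of these data known. The lists of peroxidases, resistance-type genes, proteases, cell wall, glucosidases, sugar metabolism, calmodulin-like, glycosyltransferase and amino acid breakdown genes were added after seeing the data, as were 2 alternatives. Of the value table's probes, 416 have 1 gene symbol, 0 several and 780 none. Of the 416, 415 matched the TAIR10.1 annotation by gene identifier, used for names only. No genome build is given in the sources used here, and no coordinates are printed. The number of arrays, 1 at each time, limits the precision.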

Additional observations from a re-analysis of the deposited data

Results flagged for a closer look

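Besides the cDNA clones, the array carries 18 spots named for 9 stress and hormone genes, which enter no count above, and 3 of these genes had good spots on both arrays while no negative control did. RD29A, a cold- and drought-induced gene, had log2 ratios of 0.21, 1.51, 1.77 and 0.12 at 2, 5, 10 and 24 h. It was thus high at 5 and 10 h and near untreated plants at 24 h. Its difference was -1.66 ± 0.17 (SD over 2 spot pairs), and -2.45 with print-tip loess. ERD8, a gene of the HSP90 family, stood at -0.44, -0.90, -0.36 and -1.45, lowest at 24 h, with a difference of -1.09 ± 0.11 (print-tip -1.03). ETR1, an ethylene receptor, differed by 0.62 ± 0.19, and by -0.58 with print-tip loess, so that its direction turned. Another 10 spots carry bare numbers as names, and 0 of them were good.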

How the results depend on the processing

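No paired analysis was possible because there is a single array at 10 h and at 24 h, and leaving out either leaves no difference. The counts of 80 higher and 49 lower moved by over 1.5 times with ratios scaled on alpha tubulin (259 higher, 8 lower) and in the deposited value table (180 and 26), where the median clone itself lay higher at 24 h. Under the other alternatives the counts ran from 55 to 95 higher and from 42 to 61 lower. Print-tip loess shared 50 higher and 24 lower calls, mean pixel values 72 and 36, the alpha tubulin scale 80 and 8, and 71 and 25 were shared in the deposited value table. RD2 turned to 0.16 with print-tip loess and to 0.051 on the alpha tubulin scale, and AT2G18690 to 0.00 (0.00039 unrounded) with print-tip loess; the cause was not tested. With every channel required above background, 55 clones were called higher and 43 lower. Leaving out spots with saturated pixels gave 75 and 44, and centring the differences 73 and 59, both settings chosen after seeing the data. Single differences were followed for 94 named genes, taken from the largest and smallest differences and the gene lists, so not every gene in the text is among them. Of these, 58 moved by less than the SD of their spot pairs with mean pixel values and 62 with median centring. With print-tip loess 23 did so, and on the alpha tubulin scale 7. Some of the 94 had 1 spot pair and so no such SD of their own. The spread between plants, extracts and slides is not in any error given here.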
